A study of Mus musculus with 10 samples.

Results

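Scavenger and phagocytic receptors are represented here by 8 genes: *Cd36*, *Msr1*, *Marco*, *Cd68*, *Mrc1*, *Stab1*, *Scarb1* and *Cd5l*. They were taken by name from the count tables, which together list 18292 gene symbols, and all 8 are present. The tables hold unique molecular identifier (UMI) counts, in which each captured mRNA molecule is counted once, for single mouse microglia profiled by droplet 3' RNA sequencing. There were 10 libraries in 5 groups, with 2 libraries in each group, all from C57BL/6 mice with no transgene or drug named, and all sorted as live CD11b high, CD45 intermediate cells. Adult microglia came directly from adult brain. In vitro microglia were collected from the medium of mixed glial cultures, set up from cortices of newborn mice, after 3 weeks. Slice microglia were isolated from brain slices of newborn pups after 1 day, 1 week or 3 weeks in culture, with several slices pooled as needed. Both kinds of culture medium contained animal serum. Human PDGF was added to the slice medium at each change and is not listed for the mixed glial medium. Every culture therefore began from newborn brain, so the effect of culture and that of age cannot be told apart in any comparison with adult microglia.

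Scavenger receptors are surface proteins that bind modified lipoproteins, polyanions, dying cells and microbes and carry them into the cell. Class A receptors (*Msr1*, *Marco*) are collagen-like trimers, whereas class B receptors (*Cd36*, *Scarb1*) span the membrane at both ends and also handle fatty acids and cholesterol. CD68 is a heavily glycosylated protein of late endosomes and lysosomes that is widely used as a stain for phagocytic microglia. The mannose receptor (*Mrc1*, CD206) and stabilin-1 (*Stab1*) are endocytic receptors typical of macrophages at the borders of the brain, and *Cd5l* encodes a secreted scavenger protein of tissue macrophages.

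After cell filtering 19059 of 19637 barcodes remained, with 61 to 3799 cells and 385373 to 39689540 UMIs per library. Median depth ran from 1858 UMIs per cell in one adult library to 13966 in one in vitro library, and both slice 1 week libraries were small (148 and 61 cells). All 10 microglia markers were detected in every library, with a summed level of 29865 to 30136 counts scaled to a common library total (CPM) in adult, 8492 to 11335 in slice 3 weeks, 6053 to 7338 in slice 1 week, 2983 to 3545 in slice 1 day and 2658 to 3310 in in vitro microglia. Neutrophil markers summed to 7832 and 22185 CPM in the slice 1 day libraries and to 39674 and 1033 CPM in the slice 1 week libraries, against 22.8 to 211 CPM in the other groups. Monocyte markers summed to 361 to 1162 CPM at 1 day and 1 week, to 151 to 236 CPM at 3 weeks and to 9.56 to 98.3 CPM in adult and in vitro microglia. Endothelial, astrocyte and oligodendrocyte marker sums stayed between 3.09 and 153 CPM. At most 23 cell barcodes were shared by any of the 45 pairs of libraries, or 2.94% of the smaller library at most. The replicate 1 libraries of adult and slice 3 weeks had one study label, and the remaining 8 libraries another.

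The genes lie apart in the genome (GRCm38): *Cd36* on chr5:17781690-17888801, *Msr1* on chr8:39581685-39642673, *Marco* on chr1:120474538-120505024, *Cd68* on chr11:69664213-69666153, *Stab1* on chr14:31139013-31168641 and *Scarb1* on chr5:125277087-125341094, all on the minus strand, and *Mrc1* on chr2:14229392-14332057 and *Cd5l* on chr3:87357881-87371073 on the plus strand. RefSeq promoter windows (GRCm38.p6, 250 bases before to 50 bases after the start) were matched for 6 of the 8, and not for *Msr1* or *Scarb1*. Windows are shown for the 4 genes whose levels separated the groups in different ways: *Cd36* (chr5:17835847-17836146, minus strand), *Marco* (chr1:120504975-120505274, minus strand), *Cd68* (chr11:69666121-69666420, minus strand) and *Mrc1* (chr2:14229164-14229463, plus strand). Capitals mark GAGGAA, the core of sites used by the macrophage factor PU.1, or its reverse complement, and TGANTCA, the AP-1 site.
Cd36: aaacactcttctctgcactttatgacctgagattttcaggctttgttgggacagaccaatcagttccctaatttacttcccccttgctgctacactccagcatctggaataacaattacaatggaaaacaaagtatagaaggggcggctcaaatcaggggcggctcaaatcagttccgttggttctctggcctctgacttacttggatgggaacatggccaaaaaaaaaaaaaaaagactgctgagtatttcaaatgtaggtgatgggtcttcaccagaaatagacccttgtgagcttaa
Marco: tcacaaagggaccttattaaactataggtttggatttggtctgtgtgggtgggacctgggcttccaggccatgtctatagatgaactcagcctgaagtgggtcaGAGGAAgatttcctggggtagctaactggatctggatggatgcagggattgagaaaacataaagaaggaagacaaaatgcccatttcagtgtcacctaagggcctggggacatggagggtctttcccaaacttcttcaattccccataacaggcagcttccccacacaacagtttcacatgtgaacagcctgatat
Cd68: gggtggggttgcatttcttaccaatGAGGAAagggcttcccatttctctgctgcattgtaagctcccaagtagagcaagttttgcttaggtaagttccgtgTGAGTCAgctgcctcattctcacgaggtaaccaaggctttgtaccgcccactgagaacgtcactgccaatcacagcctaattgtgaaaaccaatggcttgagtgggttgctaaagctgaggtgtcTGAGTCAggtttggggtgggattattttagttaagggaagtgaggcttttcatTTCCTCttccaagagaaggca
Mrc1: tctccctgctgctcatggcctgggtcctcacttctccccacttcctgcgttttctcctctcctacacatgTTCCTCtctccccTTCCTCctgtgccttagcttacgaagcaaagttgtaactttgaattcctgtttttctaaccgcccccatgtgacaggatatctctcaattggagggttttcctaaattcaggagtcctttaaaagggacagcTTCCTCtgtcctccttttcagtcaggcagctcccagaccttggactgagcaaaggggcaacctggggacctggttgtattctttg
GAGGAA was found on either strand in 5 of the 6 windows and in 28.3% of all 32851 promoter windows of that length. It begins at base -146 from the start in *Marco*, at -225 and 30 in *Cd68*, at -180, -167 and -35 in *Mrc1*, at -30 in *Stab1* and at -66 in *Cd5l*, and these letters are not in the *Cd36* window. TGANTCA occurred in 1 of the 6, at -149 and -24 in *Cd68*, and in 7.81% of all windows. The E-box CACGTG occurred in 0 of 6 and in 7.15% of all windows. RefSeq lists several *Cd36* transcripts and the window shown belongs to 1 of them. No match overlapped one of another motif.

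In vitro and slice microglia were each compared with adult microglia to ask how far culture microglia differ from those of the adult brain. A gene was called when its adjusted p (edgeR quasi-likelihood test, Benjamini-Hochberg over 12157 genes) was under 0.05 and its fold change above 1.5. In in vitro microglia 6 members rose (*Cd36*, *Msr1*, *Marco*, *Mrc1*, *Stab1*, *Cd5l*; 22.4% of all genes tested were called higher) and 1 fell (*Scarb1*; 28.5% called lower). In slice 1 day microglia 5 rose (*Cd36*, *Msr1*, *Marco*, *Mrc1*, *Cd5l*; 24.9% of all genes) and 1 fell (*Cd68*; 25.3%). In slice 1 week microglia 4 rose (*Cd36*, *Msr1*, *Mrc1*, *Scarb1*; 15% of all genes) and 0 fell (13.6%). In slice 3 weeks microglia 6 rose (*Cd36*, *Msr1*, *Cd68*, *Mrc1*, *Scarb1*, *Cd5l*; 17.9% of all genes) and 1 fell (*Stab1*; 17.5%). *Cd36*, *Msr1* and *Mrc1* were therefore called higher in every culture, while *Cd68*, *Stab1* and *Scarb1* were called in opposite directions in different cultures. The median log2 difference of the 8 genes from adult was 6.44 in vitro, 3.06 at 1 day and 2.77 at 3 weeks, beside -0.11, -0.061 and -0.032 for all genes. At 1 week it was 2.71 over the 7 genes other than *Marco*, which was at or under the floor there and in adult, beside -0.085 for all genes, but 0.42 without slice 1 week replicate 1. The 3 weeks median was 1.48 without slice 3 weeks replicate 1 and 1.74 without replicate 2. *Cd36*, *Msr1*, *Marco* and *Cd5l* were near 0 in adult cells and passed the filter on low counts through the cultures. A gene that passes in that way has to differ, so these medians, and the calls and p-values of such genes, are a description. The same holds for genes at or near 0 in adult in the lists further below. The values rest on 2 libraries a group, with nothing saying that they came from separate animals, and p-values measure the spread between these libraries only.

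**Figure D1:**
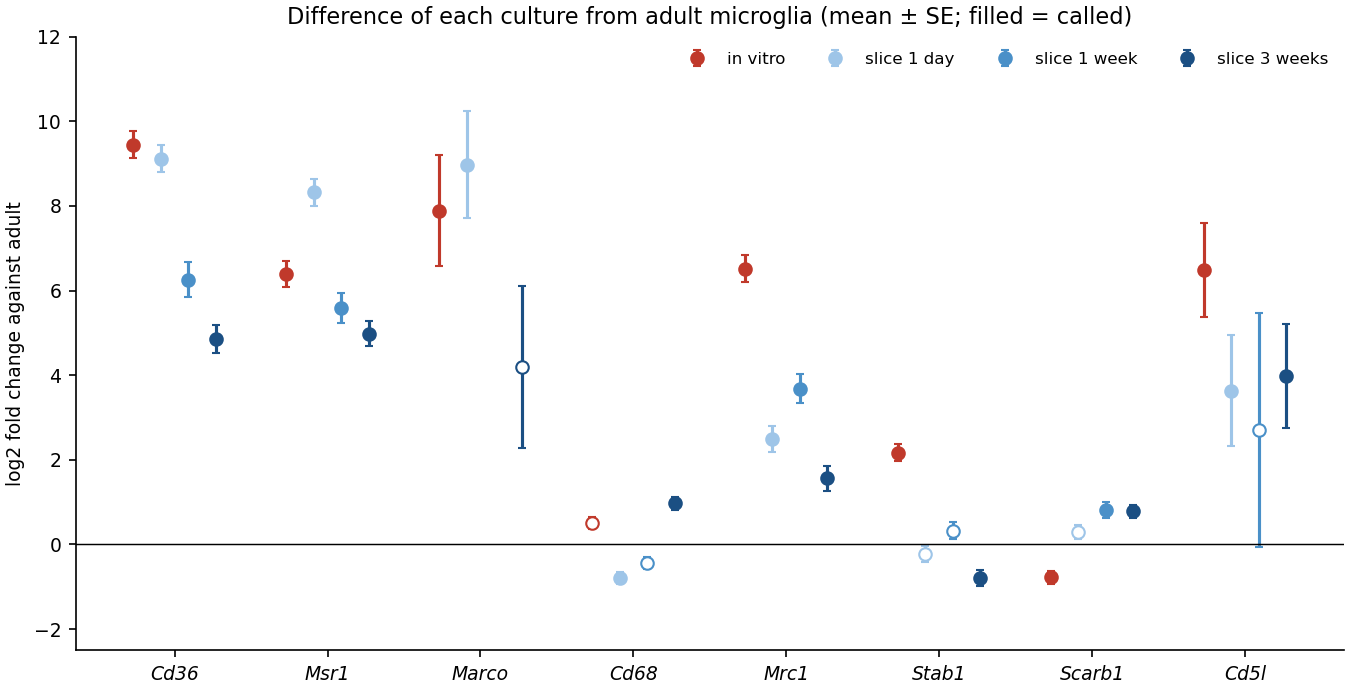
Log2 fold change against adult microglia (y axis) for each of the 8 genes (x axis) in the 4 cultures, from the edgeR fit; points are estimates, bars are 1 SE, and filled points were called. *Cd36*, *Msr1* and *Mrc1* sit above 0 in all 4 cultures, whereas *Scarb1* in vitro, *Cd68* at 1 day and 1 week and *Stab1* at 1 day and 3 weeks sit below 0 and turn positive on UMIs per cell; *Marco* at slice 1 week has no point because it had no UMI there.

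*Msr1*, the class A receptor SR-A that takes up modified lipoproteins, was almost silent in adult microglia and highest in slices after 1 day. Its level was 1.03 and 0.773 CPM in the adult libraries, 284 and 315 at 1 day, 39.5 and 53.7 at 1 week, 37.0 and 22.9 at 3 weeks, and 77.9 and 79.8 in vitro (TMM-normalised CPM, as in all levels of members below). No group overlapped another, and the order from high to low was slice 1 day, in vitro, slice 1 week, slice 3 weeks and adult. *Msr1* rose against adult by 8.32 ± 0.32 (log2, SE; adjusted p = 1.14e-07) at 1 day, 5.58 ± 0.36 (4.43e-06) at 1 week, 4.98 ± 0.30 (2.60e-06) at 3 weeks and 6.40 ± 0.30 (1.22e-07) in vitro. Within slices it fell by 2.74 ± 0.26 on the log2 scale from 1 day to 1 week (adjusted p = 0.000977) and by 3.34 ± 0.23 from 1 day to 3 weeks (5.48e-05). The step from 1 week to 3 weeks, -0.60 ± 0.27, did not pass (adjusted p = 0.232). Without slice 3 weeks replicate 1 that step was -0.91 and was called (adjusted p = 0.0321), and with the study label term it was -0.94 and was called (0.0323).

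*Marco*, the second class A receptor, binds bacteria and particles and is otherwise known from macrophages of the marginal zone and the lung. It had 1 UMI among the 3799 cells of one adult library and 0 among the 3527 cells of the other, and 0 UMIs in both slice 1 week libraries. Levels were 38.3 and 19.2 CPM at 1 day, 21.4 and 5.25 in vitro, and 0.259 and 1.40 at 3 weeks. The 1 day and in vitro ranges overlapped and both lay above the other groups. Pooled over a group, the level was 483 times that of adult at 1 day (95% interval for counting error 86.0 to 19117; adjusted p = 0.000303) and 222 times in vitro (39.8 to 8788; adjusted p = 0.000686). At 3 weeks the ratio to adult was 20.4 (3.40 to 829), and the fitted difference did not pass (adjusted p = 0.110), with 19 of the 30 UMIs of replicate 2 in 1 cell. Leaving out either in vitro library changed that call (adjusted p = 0.0263 and 0.0260), as did keeping all barcodes (0.0479), using no low-count filter (1.47e-06) or UMIs per cell (2.70e-07). The ratio in vitro was 90.4 without in vitro replicate 1 and 376 without replicate 2, and at 1 day 765 without slice 1 day replicate 2 and 312 without adult replicate 2. Without adult replicate 1 no adult UMI remained, and the level was at least 57.0-fold higher at 1 day and at least 26.2-fold higher in vitro. Against 1 week, with a floor of 3 UMIs over the group (2.05 CPM), *Marco* was at least 12.3-fold higher at 1 day, though the fitted difference did not pass (adjusted p = 0.0638), and at least 5.66-fold higher in vitro, which was not tested. These bounds were 3.23 and 1.49 without slice 1 week replicate 1, 9.06 and 4.17 without slice 1 week replicate 2, 19.5 at 1 day without slice 1 day replicate 2, and 2.30 and 9.59 in vitro without in vitro replicates 1 and 2. It fell by 4.77 ± 0.80 on the log2 scale from 1 day to 3 weeks (adjusted p = 0.00245).

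*Cd36*, the class B receptor for long-chain fatty acids and oxidised lipoproteins, was close to absent in adult microglia and high in vitro and in slices after 1 day. Its level was 0.366 and 0.258 CPM in adult, 181 and 190.1 at 1 day, 25.7 and 25.6 at 1 week, 10.5 and 9.04 at 3 weeks, and 187 and 282 in vitro. In vitro and 1 day levels overlapped, and every other group stood apart from its neighbours in the order. In slice 1 week replicate 2, however, a single cell held 5 of the 10 UMIs, and the level without it was 12.8 CPM. In adult microglia the 2 libraries held 7 UMIs in all, in 4 of 3799 and 2 of 3527 cells. *Cd36* rose against adult by 9.45 ± 0.32 in vitro (log2; adjusted p = 2.46e-08), 9.12 ± 0.32 at 1 day (7.74e-08), 6.26 ± 0.41 at 1 week (5.56e-06) and 4.85 ± 0.34 at 3 weeks (6.21e-06). In the slices it fell by 2.86 ± 0.25 from 1 day to 1 week (adjusted p = 0.000854) and by 4.26 ± 0.22 from 1 day to 3 weeks (9.34e-06). The further drop from 1 week to 3 weeks, -1.41 ± 0.28, was called (adjusted p = 0.0191), but not without slice 1 week replicate 1 (0.295), slice 1 week replicate 2 (0.0772) or slice 3 weeks replicate 2 (0.0772), nor on thinned cells (0.475) or in the fit of these groups alone (0.0754).

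*Scarb1*, the class B receptor for high-density lipoprotein, moved within a narrow range and was the only member called lower in vitro. Its level was 34.4 and 35.7 CPM in adult, 44.8 and 41.4 at 1 day, 70.2 and 46.1 at 1 week, 65.2 and 55.3 at 3 weeks, and 20.5 and 20.4 in vitro. The in vitro libraries lay below all others and the adult libraries below all slice libraries, while slices of 1 week and 3 weeks overlapped. *Scarb1* fell by 0.78 ± 0.16 on the log2 scale in vitro (adjusted p = 0.00175), although on UMIs per cell it was 1.40 higher beside a median of 2.04 for all genes. It rose by 0.78 ± 0.16 at 3 weeks (adjusted p = 0.00300), or by 0.58 and under 1.5-fold on library size alone. The rise of 0.81 ± 0.19 at 1 week (adjusted p = 0.0104) was not called without slice 1 week replicate 1 (0.42, adjusted p = 0.485), on thinned cells (0.73, adjusted p = 0.226) or on library size alone (0.584, under 1.5-fold). The difference at 1 day was 0.30 ± 0.16 (adjusted p = 0.140), and 1.85 and called on UMIs per cell beside a median of 1.49 for all genes. Within slices the difference was 0.51 ± 0.19 from 1 day to 1 week (adjusted p = 0.124) and 0.48 ± 0.16 from 1 day to 3 weeks (adjusted p = 0.0419, under 1.5-fold), the latter called without slice 3 weeks replicate 2 (0.61, adjusted p = 0.0207).

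**Figure D2:**
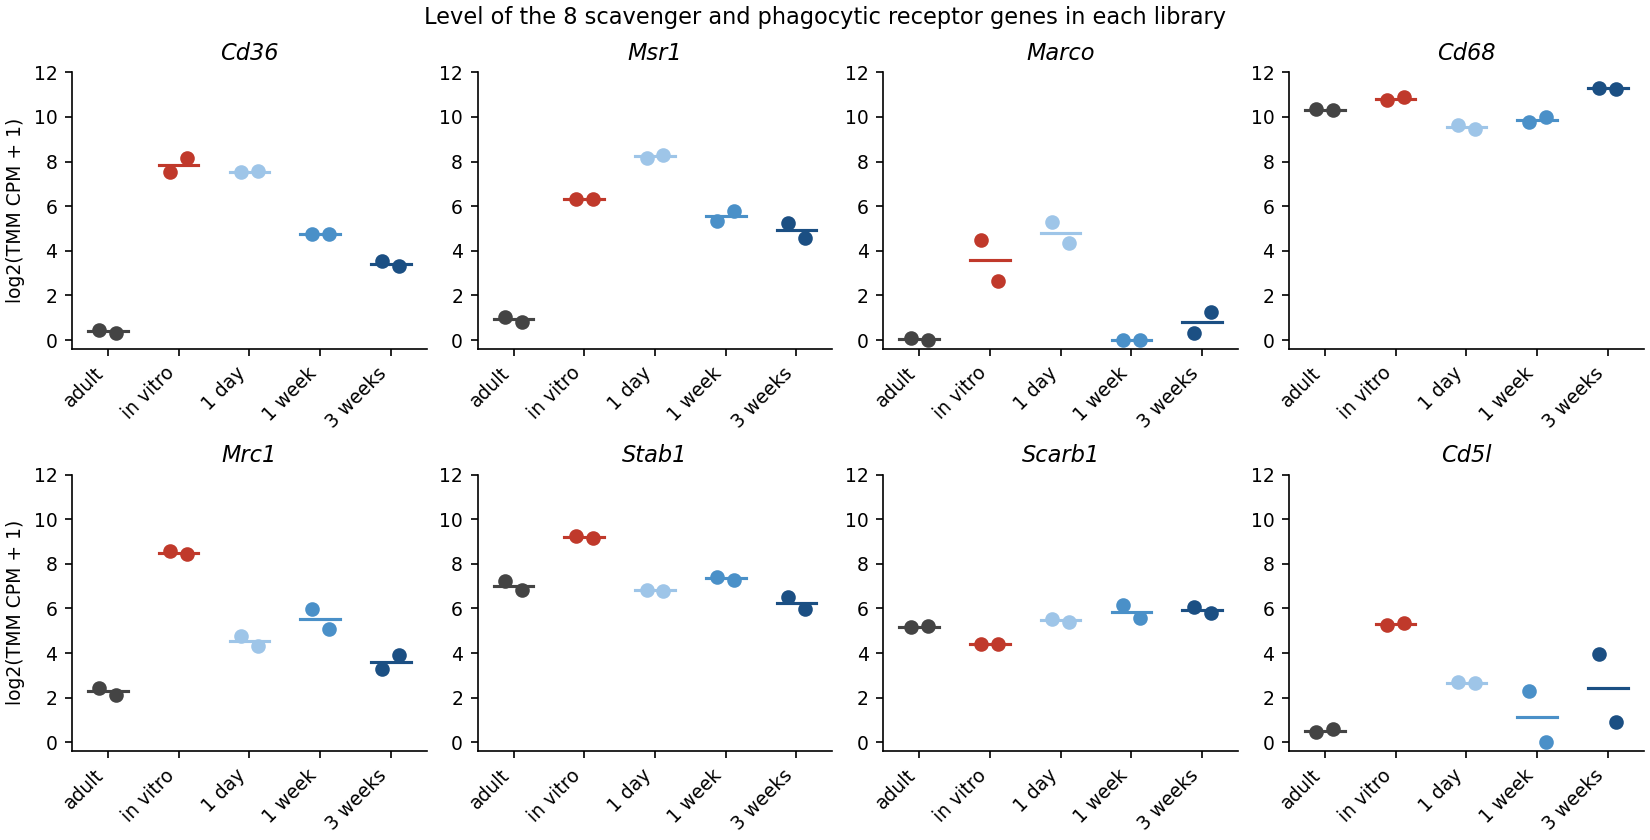
Level of each gene in each library, as log2(TMM CPM + 1) on the y axis; points are the 2 libraries of a group and the bar is their mean. *Cd36* and *Msr1* step down from slice 1 day to slice 3 weeks and remain above adult, *Cd68* steps up over the same time, and *Mrc1* and *Stab1* are highest in vitro.

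*Cd68* was abundant in every library and was lowest in slices after 1 day. Its level was 1291 and 1264 CPM in adult, 784 and 696 at 1 day, 879 and 1011 at 1 week, 2544 and 2453 at 3 weeks and 1707 and 1909 in vitro. No group overlapped another, and the order from high to low was slice 3 weeks, in vitro, adult, slice 1 week and slice 1 day. *Cd68* rose at 3 weeks against adult by 0.97 ± 0.14 (log2; adjusted p = 0.000522). At 1 day it fell by 0.79 ± 0.14 (adjusted p = 0.00103), although on UMIs per cell it was 0.74 higher, beside a median of 1.49 for all genes. Over time in slices it rose by 1.76 ± 0.15 from 1 day to 3 weeks (adjusted p = 8.16e-05) and by 1.40 ± 0.15 from 1 week to 3 weeks (0.00188), whereas the difference from 1 day to 1 week was 0.35 ± 0.14 (0.154). *Cd68* was the only member called higher between slice ages other than *Mrc1*. The in vitro difference from adult, 0.50 ± 0.14 (adjusted p = 0.0124), stayed under 1.5-fold, but passed it when any of 7 of the 10 libraries was left out in turn (0.61 to 0.70). The 1 week difference from adult, -0.44 ± 0.14 (adjusted p = 0.0433), was also under 1.5-fold. It was called on thinned cells (-0.69, adjusted p = 0.0216) and on library size alone (-0.64, adjusted p = 0.0114), whereas on UMIs per cell it was 0.75.

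*Mrc1*, which internalises mannosylated glycoproteins, was set apart by its level in vitro. It stood at 383 and 341 CPM in vitro, 4.39 and 3.35 in adult, 25.9 and 19.2 at 1 day, 61.3 and 33.3 at 1 week, with 8.67 and 14.1 at 3 weeks. No group overlapped another, with in vitro highest, then slice 1 week, slice 1 day, slice 3 weeks and adult. In slice 1 week replicate 2, however, a single cell held 5 of the 13 UMIs. Without that cell its level was 20.5 CPM, within the range of the 1 day libraries. *Mrc1* rose against adult by 6.52 ± 0.32 in vitro (log2; adjusted p = 1.65e-07), 2.49 ± 0.30 at 1 day (8.20e-05), 3.68 ± 0.35 at 1 week (5.73e-05) and 1.56 ± 0.30 at 3 weeks (0.00225). Within slices it rose by 1.19 ± 0.32 from 1 day to 1 week (adjusted p = 0.0398) and fell by 2.12 ± 0.32 from 1 week to 3 weeks (0.00541) and by 0.93 ± 0.27 from 1 day to 3 weeks (0.0264). The first of these steps was 0.56 without slice 1 week replicate 1 (adjusted p = 0.630) and was not called when any of 7 of the 10 libraries was left out in turn. The second was not called without slice 1 week replicate 1 (adjusted p = 0.279). On thinned cells neither was called (0.12 and -0.87, adjusted p = 0.956 and 0.543). The third was not called without either 1 day library (0.137 and 0.0511) or without slice 3 weeks replicate 1 (0.0778). It was also lost on thinned cells (-0.75, adjusted p = 0.117), in the fit of these groups alone (0.0626) and with the study label term (0.0546).

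*Stab1*, which clears acetylated lipoprotein and matrix proteins such as SPARC, was present in adult microglia and was called higher in vitro but in no slice group. Its level was 147 and 113.0 CPM in adult, 113.0 and 109 at 1 day, 171 and 154 at 1 week, 88.9 and 61.5 at 3 weeks, and 609 and 560.1 in vitro. Adult and 1 day libraries overlapped, in vitro libraries lay above all others, 3 weeks libraries below all others and both 1 week libraries above both adult libraries. *Stab1* rose in vitro by 2.17 ± 0.20 (log2; adjusted p = 8.80e-06) and differed by -0.23 ± 0.19 at 1 day (0.335) and 0.33 ± 0.21 at 1 week (0.262). On UMIs per cell these were 1.27 and 1.48, both called (adjusted p = 0.00163 and 0.000814), beside medians of 1.49 and 1.10 for all genes. At 3 weeks it fell by 0.80 ± 0.19 (adjusted p = 0.00841), but was 0.28 higher on UMIs per cell beside a median of 1.05 for all genes. That call was lost without adult replicate 1 (-0.54, adjusted p = 0.104) and without slice 3 weeks replicate 2 (-0.49, adjusted p = 0.0715). From 1 week to 3 weeks it fell by 1.12 ± 0.21 (adjusted p = 0.0137), a call lost without either 1 week library (0.206 and 0.0547) or slice 3 weeks replicate 2 (0.0581). From 1 day to 3 weeks the difference was -0.57 ± 0.19 (adjusted p = 0.0498, under 1.5-fold), which reached -0.86 and was called without slice 3 weeks replicate 1 (adjusted p = 0.00724). It was also called with the study label term (-0.81, adjusted p = 0.00388), on library size alone (-0.64), on UMIs per cell (-0.99) and without neutrophil marker-rich cells (-0.62).

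*Cd5l*, the secreted member, was highest in vitro and uneven among slices. Its level was 37.2 and 40.0 CPM in vitro, 0.366 and 0.515 in adult, 5.50 and 5.25 at 1 day, 3.95 and 0 at 1 week, with 14.6 and 0.885 at 3 weeks. In vitro libraries lay above all others, whereas the 3 weeks libraries lay on both sides of the 1 day libraries and the 1 week libraries on both sides of adult. In slice 3 weeks replicate 1 a single cell held 45 of the 113 UMIs (39.8%), and the level without it was 8.80 CPM. *Cd5l* rose in vitro by 6.48 ± 1.11 (log2; adjusted p = 0.000618). The rises at 1 day, 3.63 ± 1.31 (adjusted p = 0.0361), and at 3 weeks, 3.97 ± 1.23 (0.0261), each rested on few UMIs. The 1 day call was lost without either adult library (adjusted p = 0.160 and 0.0904), either 1 day library (0.0680 and 0.116) or either 1 week library (0.0537 and 0.0533). The 3 weeks call was lost without either adult library (0.144 and 0.0844) and became 1.09 without slice 3 weeks replicate 1 (0.109). From 1 day to 3 weeks the difference was 0.34 ± 0.90 (adjusted p = 0.810), but -2.59 without slice 3 weeks replicate 1 (called, adjusted p = 0.000575), 1.46 without replicate 2 (called, 0.00440) and -2.22 with the study label term (called, 0.0208). At 1 week 4 UMIs against 9 in adult gave a ratio of 5.82 (95% interval 1.31 to 20.8), and the fitted difference was 2.71 ± 2.76 (adjusted p = 0.502). That difference was called without either 3 weeks library (0.0366 and 0.0353), with the study label term (5.55, adjusted p = 0.0429), on UMIs per cell (3.85, 0.00184) and with no low-count filter (2.64, 0.0349).

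Taken over the slice ages, 1 member rose (*Cd68*; 13.9% of all genes were called higher) and 4 fell (*Cd36*, *Marco*, *Mrc1*, *Msr1*; 12.8% called lower) from 1 day to 3 weeks, with a median log2 difference of -0.75 for the 8 genes (-1.72 without slice 3 weeks replicate 1) and 0.046 for all genes. From 1 day to 1 week 1 rose (*Mrc1*; 4.91%) and 2 fell (*Cd36*, *Msr1*; 5.25%). From 1 week to 3 weeks 1 rose (*Cd68*; 2.23%) and 3 fell (*Cd36*, *Mrc1*, *Stab1*; 3.49%). That last count was 1 to 5 when 1 library at a time was left out, lowest without slice 1 week replicate 1, and it rests on the 209 cells of the 1 week libraries.

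In vitro and slice microglia, both at 3 weeks, were also compared directly. Of the 8 genes 6 were higher in vitro (*Cd36*, *Msr1*, *Marco*, *Mrc1*, *Stab1*, *Cd5l*; 13.3% of all genes were called higher) and 1 was lower (*Scarb1*; 19.9% called lower), with a median log2 difference of 2.73 beside -0.10 for all genes. *Mrc1* differed by 4.96 ± 0.29 (log2; adjusted p = 1.45e-06), *Cd36* by 4.597 ± 0.22 (4.56e-07), *Marco* by 3.69 ± 0.77 (0.00503), *Stab1* by 2.96 ± 0.21 (4.25e-06) and *Msr1* by 1.41 ± 0.21 (0.000602). *Scarb1* differed by -1.56 ± 0.16 (adjusted p = 4.75e-05), but by -0.49 on UMIs per cell, which was not called (adjusted p = 0.215). *Cd68* differed by -0.47 ± 0.14 (adjusted p = 0.0263), which was under 1.5-fold, and by 0.60 on UMIs per cell. *Cd5l* differed by 2.51 ± 0.78 (adjusted p = 0.0278), a call lost without either in vitro library (0.0697 and 0.0870).

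The share of cells with at least 1 UMI depends on depth, so each cell was also thinned to 1800 UMIs, which left out 2149 shallower cells. For *Mrc1* the share was 87.0% and 87.5% in vitro (95% exact binomial interval 85.6 to 88.3 and 86.2 to 88.8) and 42.4% and 39.3% after thinning, against 0.797% and 0.471% in adult and 1.42% to 4.32% in slices after thinning. *Stab1* was found after thinning in 55.4% and 52.6% of in vitro cells, 24.0% and 19.4% of adult cells and 10.6% to 23.1% of slice cells. *Cd36* was found after thinning in 20.02% and 26.8% of in vitro cells and 19.7% and 21.5% of 1 day cells, and in 1.504% and 1.08% of 3 weeks cells. *Msr1* was found in 27.2% and 36.1% of 1 day cells and in 10.9% and 9.96% of in vitro cells. The intervals of the 1 day shares lay above those of the in vitro shares for *Msr1* in all 4 library pairs. *Cd68* was found after thinning in 90.3% and 90.05% of adult cells, in 95.0% and 92.6% at 3 weeks and in 69.7% and 63.6% at 1 day. *Marco* was confined to few cells, with 6.25% and 2.54% of in vitro cells and 5.21% and 5.42% of 1 day cells before thinning, and up to 45 UMIs in 1 cell. After thinning the *Marco* shares were 2.11% and 0.522% in vitro and 3.05% and 2.37% at 1 day. In slices of 1 week, 0 of 148 and 0 of 61 cells had a *Marco* UMI, which allows shares of cells with a UMI of up to 2.03% and 4.92% at these depths. *Cd5l* was found in 14.8% and 16.4% of in vitro cells and in at most 3.64% of the cells of any slice library before thinning. After thinning its shares were read in cells without a *Scarb1* UMI, which were most cells. They were 3.78% and 4.68% in vitro, 1.096% and 0.848% at 1 day, and 1.68% and 0.1496% at 3 weeks. The gap between in vitro and the highest of these slice libraries was thus smaller after thinning. Intervals and limits cover counting error only.

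**Figure D3:**
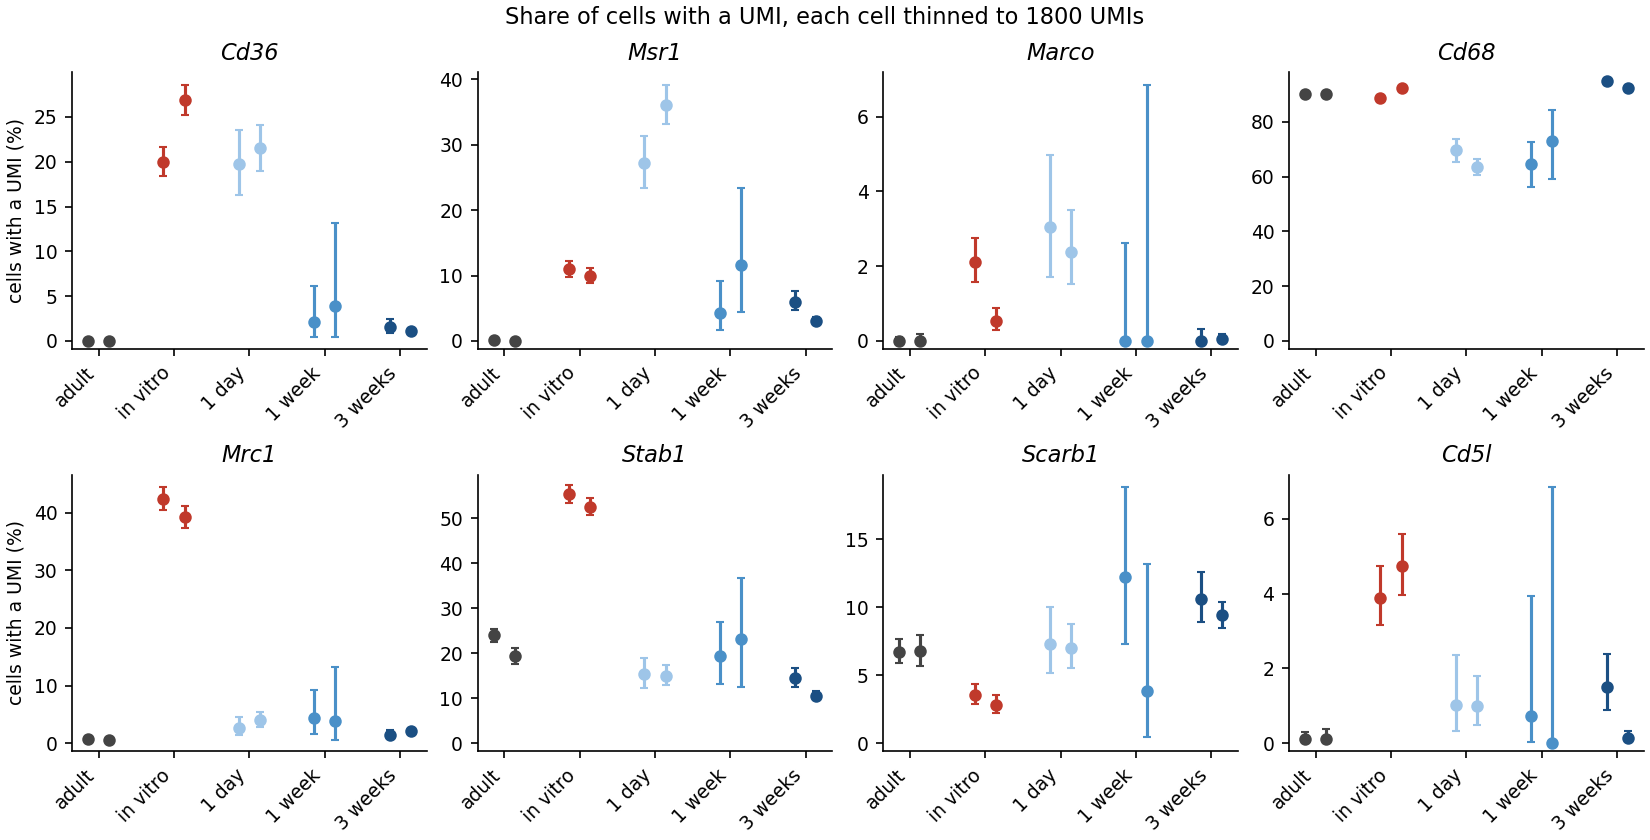
Percent of cells with a UMI of each gene after every cell was thinned to 1800 UMIs (y axis, its range set for each gene), by group; points are libraries and bars are exact 95% binomial intervals. The in vitro libraries lie at 42.4% and 39.3% for *Mrc1* and at 55.4% and 52.6% for *Stab1*, above all slice and adult libraries.

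Slices of 1 day and 1 week held cells with more than 5% of their UMIs from the 10 neutrophil markers: 57 (11.004%) and 105 (10.4%) cells at 1 day and 23 (15.5%) and 1 cells at 1 week, and 0 in the other 6 libraries. These cells give the nearest measure of the UMIs that cells of another type carried, though with fewer UMIs per cell (median 2295 against 6839 in 1 day replicate 1, and 5233 against 8815 in replicate 2). After thinning, *Msr1* was found in 4.17% of them and 29.7% of the other cells in replicate 1, and in 5.71% and 39.6% in replicate 2. *Cd36* was found in 6.25% against 21.2% and in 7.62% against 23.1%. *Cd68* was found in 33.3% against 73.6% and in 22.9% against 68.3%. *Marco* and *Cd5l* had UMIs in 0 of the 48 and 0 of the 105 thinned cells, which allows shares of cells with a UMI of up to 6.25% and 2.86%. The other cells stood at 3.38% and 2.64% for *Marco* and at 1.13% and 1.10% for *Cd5l* after thinning, all under those limits, so a difference was not detectable at this depth. *Mrc1* also had 0 among these cells, against 2.93% of the others in replicate 1, under the limit, and 4.4% in replicate 2. *Stab1* was found in 6.25% against 16.4% and in 3.81% against 16.3%. *Scarb1* was found after thinning in 12.5% against 6.76% in replicate 1 and 1.90% against 7.59% in replicate 2, so its share in replicate 1 was not above the one in neutrophil marker-rich cells. In slice 1 week replicate 1 the 23 such cells gave 17.4% for *Cd68* against 74.1% of the others and 13.04% (interval 2.78 to 33.6) for *Stab1* against 20.7%. They held no UMI of *Cd36*, *Msr1* or *Mrc1* after thinning, which allows up to 13.04%, above the 2.59%, 5.17% and 5.17% of the others. No such cells were present to give a background for the adult, in vitro and 3 weeks libraries. Without these cells, an alternative chosen after seeing the data, the number of members called against adult was 7 in vitro, 6 at 1 day, 4 at 1 week and 7 at 3 weeks, as with all cells. Under the planned and wider rule, which dropped cells with 3 or more neutrophil markers and with them slice 1 day replicate 2 and slice 1 week replicate 1, the counts were 8, 4, 3 and 6. Calls lost under it were those of *Cd68* at 1 day (-0.57, against -0.79 with all cells) and *Scarb1* at 1 week (0.37, against 0.81). Those of *Cd5l* at 1 day (3.98) and 3 weeks (4.05) were also lost, though these 2 differences were no smaller than with all cells.

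**Figure D4:**
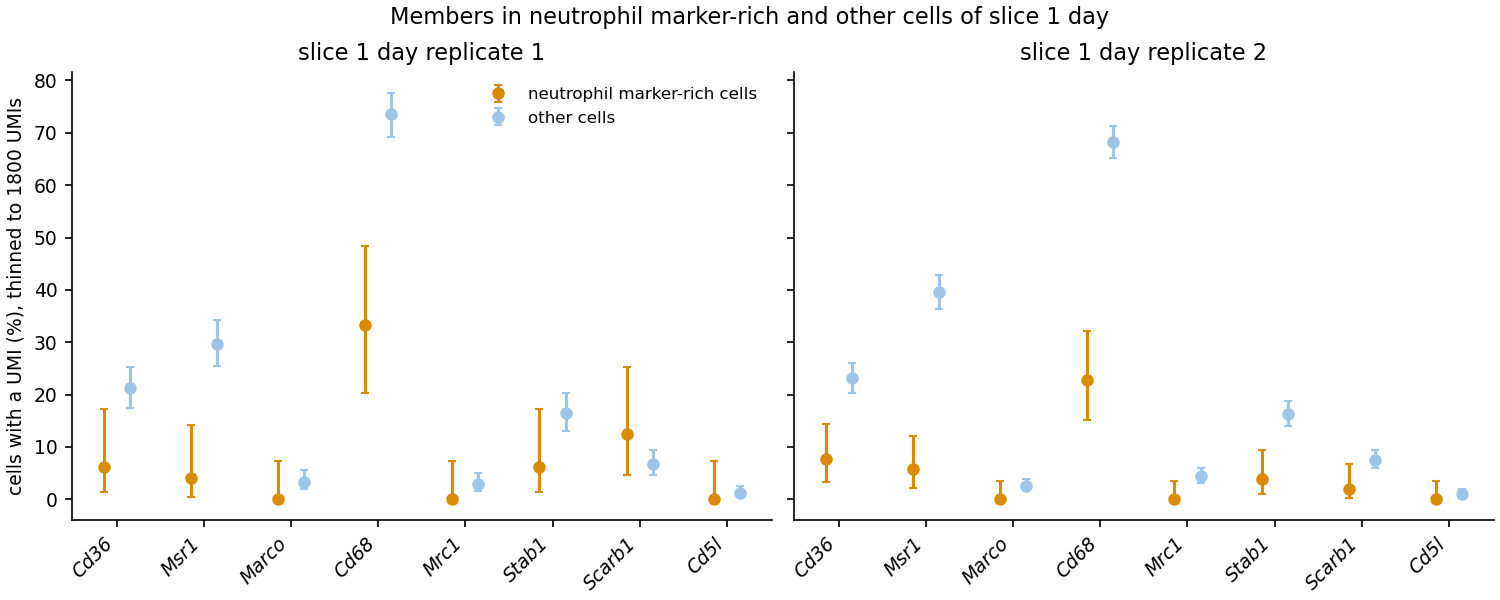
Percent of slice 1 day cells with a UMI of each gene after thinning to 1800 UMIs (y axis), in cells with more than 5% of UMIs from neutrophil markers and in the other cells; panels are the 2 libraries and bars are exact 95% binomial intervals. *Msr1* was found in 4.17% and 5.71% of neutrophil marker-rich cells and in 29.7% and 39.6% of the others.

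Border macrophage markers moved with several members. The 9 markers (without *Mrc1* and *Stab1*, which such macrophages also express) summed to 6.47 to 10.7 CPM in adult, 140.3 to 203 at 3 weeks, 301 to 458 at 1 week, 322 to 378 at 1 day and 4122 to 4217 in vitro. Of the in vitro sum, *Pf4* and *Ms4a7* made 3978 to 4111 CPM and the other 7 markers 107 to 144 CPM. The defining markers *Lyve1* and *Cd209f* had 0 UMIs in both 3 weeks libraries and *Cd163* had 0 and 2. The 7 markers other than *Pf4* and *Ms4a7* together stood at 43.4 to 50.01 CPM at 3 weeks against 2.50 to 3.23 in adult, with *Folr2* at 38.6 and 23.5 CPM (1.05 and 1.32 in adult), *F13a1* at 7.42 and 16.7 (0.807 and 0.147) and *Siglec1* at 2.30 and 2.87 (0.404 and 0.735). In every slice library with at least 15 cells of both kinds, those with an *Mrc1* UMI carried more border macrophage marker RNA than those without, by 12.5 and 7.50 times at 1 day, 4.998 times in 1 week replicate 1 and 3.75 and 6.32 times at 3 weeks, but 1.19 and 1.08 times in vitro. The same ratio was 5.95, 2.92, 3.48, 3.90 and 6.66 for *Cd36* in those slice libraries, and 0.975 and 0.955 in vitro. For *Msr1* it was 2.08, 2.67, 3.13, 2.60 and 4.69 in slices and 0.993 and 0.942 in vitro, and for *Marco* 4.08 and 4.98 at 1 day. At 3 weeks the cells with a *Cd36* UMI had 0.705 and 0.580 times, and those with an *Msr1* UMI 0.662 and 0.609 times, the microglia marker level of the other cells. Over 7 slice and in vitro libraries this ratio reached 1.18 for *Cd36* and 1.74 for *Msr1*, and was above 1 in 1 and 2 of them. For *Mrc1* it was 0.871 to 1.304, above 1 in 4 of 7. In adult microglia the 48 and 22 cells with an *Mrc1* UMI held 460.4 and 318 CPM of the border macrophage markers, against 3.85 and 3.86 CPM in the other cells. For *Stab1* the adult values were 19.1 and 14.6 CPM against 5.03 and 3.88. Monocyte markers were 0.407 to 2.11 times as high in cells with a *Cd36* UMI as in those without, above 1 in 4 of 7 slice and in vitro libraries, and 0.605 to 2.83 times for *Msr1*, also above 1 in 4 of 7. The part of these markers in the differences between groups was not tested. Cells with a UMI were also deeper (for *Cd36* at 3 weeks, median 7345 against 6050 and 7803 against 5232 UMIs). Fewer cells of a type and less RNA per cell cannot be told apart in the summed libraries. Without cells that carried at least 2 of the 7 markers other than *Pf4* and *Ms4a7*, also chosen after seeing the data, 8 members were called in vitro, 6 at 1 day, 4 at 1 week and 7 at 3 weeks against adult. The *Mrc1* fall from 1 day to 3 weeks was not called without those cells (-0.55, adjusted p = 0.158), nor under the planned rule on all 9 markers (-0.67, adjusted p = 0.211). With only cells that had UMIs of at least 4 of the 10 microglia markers, likewise chosen after seeing the data, the counts were 7, 6, 4 and 7.

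**Figure D5:**
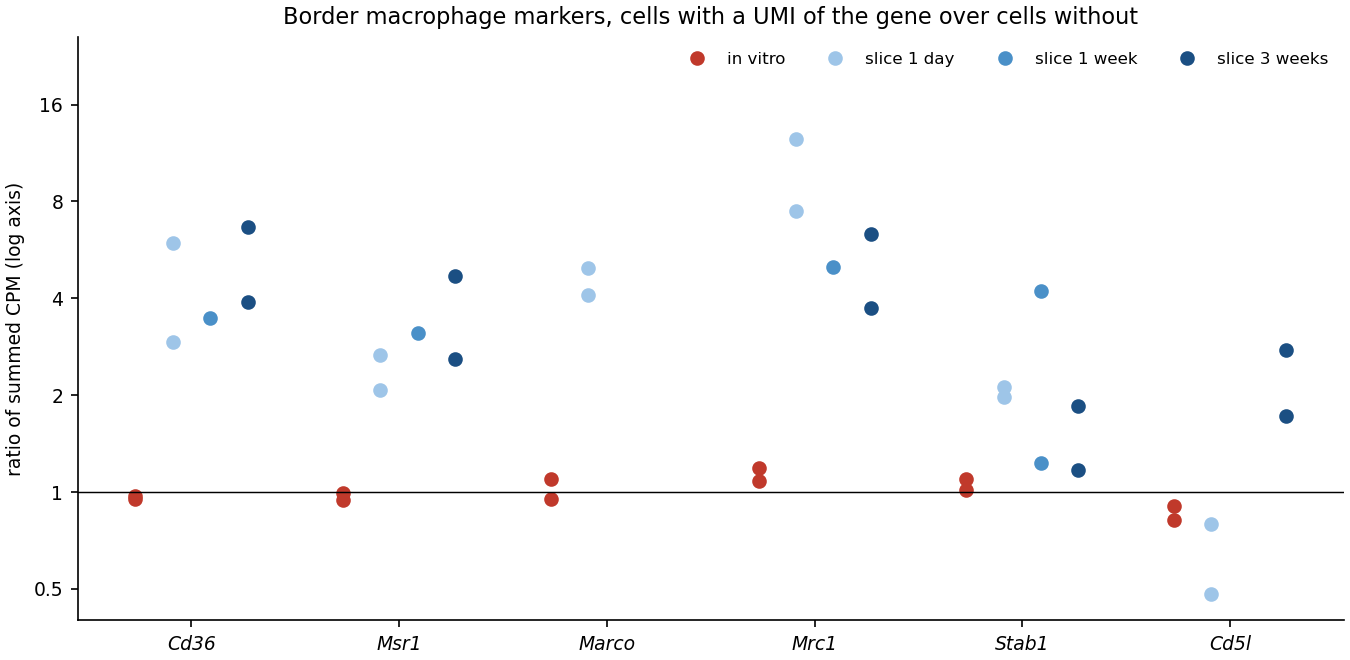
Summed CPM of 9 border macrophage markers in cells with a UMI of the gene over that in cells without (y axis, log scale), for each slice and in vitro library with at least 15 cells of both kinds; points are libraries coloured by group. Slice points of *Mrc1*, *Cd36* and *Msr1* lie between 2.08 and 12.5, and in vitro points of these genes between 0.942 and 1.19.

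Members shared cells to differing degrees. After thinning, *Stab1* was found in 60.9% and 59.1% of in vitro cells with an *Mrc1* UMI and in 51.3% and 48.5% of those without. The shares were 40.0% and 13.96% in slice 1 day replicate 2, 18.8% and 14.5% in slice 3 weeks replicate 1, 23.4% and 10.3% in replicate 2 and 29.6% and 23.9% in adult replicate 1, the first of each pair over 40, 16, 77 and 27 cells. *Msr1* was found in 29.9% and 46.3% of 1 day cells with a *Cd36* UMI and in 26.6% and 33.3% of those without, while in vitro the shares were 10.3% against 11.1% in replicate 1 and 14.9% against 8.15% in replicate 2. At 3 weeks it was found in 17.6% and 12.5% of the 17 and 40 cells with a *Cd36* UMI and in 5.84% and 2.96% of the others. These are descriptions of cells that share a library, with no test.

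Of 16 other scavenger receptors listed, 9 were tested, of which 5 rose (22.4% of all genes did; *Cd163*, *Cd44*, *Colec12*, *Cxcl16*, *Stab2*) and 1 fell (28.5%; *Scarf2*) in vitro, and 4 rose (17.9%; *Cd44*, *Colec12*, *Cxcl16*, *Lrp1*) and 0 fell (17.5%) at 3 weeks, with medians of 1.57 in vitro and 1.12 at 3 weeks (0.78 with *Stab2*, which had 0 UMIs in adult, at its bound). *Stab2*, *Cd163* and *Colec12* had few or no UMIs in adult and passed the filter on low counts through the cultures, so their in vitro calls are a description. *Colec12*, a collectin receptor for oxidised lipoprotein, was at 0 to 0.146 CPM in adult, 153 to 155 in vitro and 60.2 to 77.2 at 3 weeks, and rose by 10.56 ± 0.34 and 9.39 ± 0.35 (log2). *Cd44*, the hyaluronan receptor, rose by 7.39 ± 0.36 and 5.50 ± 0.38, and *Cxcl16*, a chemokine that also binds oxidised lipoprotein, by 1.57 ± 0.16 and 1.12 ± 0.16. Of the other 3 mannose receptor family genes, *Mrc2* alone was tested and had 0 UMIs in vitro against 112 in adult, at least 143-fold lower (77.2 and 66.1 without in vitro replicate 1 or 2; adjusted p = 6.03e-06). Among 3 lysosome-associated membrane protein genes tested, *Lamp1* rose by 0.70 ± 0.16 (0.39 and not called on library size alone) and *Lamp3* fell in vitro, and 0 were called at 3 weeks.

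Genes for uptake of dying cells moved both ways. Of 11 tested genes for phosphatidylserine receptors and bridging molecules 5 rose (22.4% of all genes did) and 4 fell (28.5%) in vitro (median 0.58), and 5 rose (17.9%) and 2 fell (17.5%) at 3 weeks (median 1.10, or -0.02 with *Timd4*, which had 0 UMIs in adult and 1 at 3 weeks, at its bound). *Axl*, a receptor tyrosine kinase for Gas6, rose by 3.56 ± 0.43 in vitro and 4.10 ± 0.43 at 3 weeks, and *Anxa5*, which binds phosphatidylserine, by 3.87 ± 0.18 and 2.92 ± 0.17. *Gas6* rose by 1.58 ± 0.18 at 3 weeks, while *Pros1*, the other TAM receptor ligand, fell by 3.24 ± 0.17 in vitro on the log2 scale. Of 13 engulfment machinery genes 2 rose (22.4% of all genes did) and 3 fell (28.5%) in vitro (median 0.11), and 0 rose (17.9%) and 4 fell (17.5%) at 3 weeks (median -0.01). *Elmo1*, part of the Rac activator used in engulfment, fell by 2.33 ± 0.22 in vitro and by 1.68 ± 0.21 at 3 weeks, but on UMIs per cell it was -0.14 and -0.55 and neither was called (adjusted p = 0.711 and 0.163). The actin regulator *Wasf2* fell by 0.93 ± 0.15 and by 0.87 ± 0.15, with values of 1.27 and 0.24 on UMIs per cell. The small GTPase *Rac2* rose by 1.06 ± 0.13 in vitro. The kinase *Syk* fell by 0.94 ± 0.20 at 3 weeks, with 0.11 on UMIs per cell, and was not called without adult replicate 1 (-0.75, adjusted p = 0.0610).

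Most partners in lipid handling rose in the cultures. Of 11 genes tested 9 rose (22.4% of all genes did) and 1, *Abcg1*, fell (28.5%) in vitro (median 2.34), and 9 rose (17.9%) and 0 fell (17.5%) at 3 weeks (median 1.64), with 8 higher and 1 lower at both 1 day (24.9% and 25.3% of all genes) and 1 week (15% and 13.6%). *Fabp5*, a fatty acid carrier, was at 1.16 to 2.12 CPM in adult, 795 to 1330.1 in vitro and 289 to 374 at 3 weeks, and rose by 9.26 ± 0.41 and 7.58 ± 0.39. *Fabp4* had 0 UMIs in adult and was at least 226-fold higher in vitro and at least 26.9-fold higher at 3 weeks. The 3 weeks call was lost without adult replicate 1 (adjusted p = 0.108), adult replicate 2 (0.0641) or slice 3 weeks replicate 1 (0.0806), with bounds of 9.55, 17.4 and 8.02, and without slice 3 weeks replicate 2 the bound was 81.0. The in vitro bound was 80.2 without adult replicate 1 and 146 without adult replicate 2. The lipid droplet coat gene *Plin2* rose by 4.94 ± 0.18 in vitro and lipoprotein lipase, *Lpl*, by 5.94 ± 0.30 at 3 weeks. Of 12 nuclear receptors and macrophage regulators 4 rose (22.4% of all genes did) and 2 fell (28.5%) in vitro (median 0.24), and 0 rose (17.9%) and 4 fell (17.5%) at 3 weeks (median -0.40). *Pparg*, a known activator of *Cd36* that was singled out after its values were seen, had 937 UMIs in vitro and 0 in adult, at least 81.4-fold higher (28.8 without adult replicate 1 and 52.5 without replicate 2; adjusted p = 1.06e-05), and 8 at 3 weeks. It was also called higher at 1 day and 1 week. *Pparg* passed the filter on low counts only through the cultures, so its p is a description, and a link to *Cd36* was not tested. Its partner *Rxra* rose by 1.57 ± 0.22 in vitro, where *Ppard* fell by 1.31 ± 0.16 (0.88 on UMIs per cell). At 3 weeks *Maf* fell by 1.03 ± 0.16, *Rxrb* by 0.83 ± 0.19 and *Spi1*, which encodes PU.1, by 0.69 ± 0.14 (0.067, 0.27 and 0.42 on UMIs per cell).

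The genes whose level followed each member most closely over the 10 libraries were found by Pearson correlation of log2(TMM CPM + 1) among 7952 genes, as a description without a test, since libraries of a group share their treatment. They were *Pdcd6ip* (r = 0.990) and *Tomm22* (0.987) for *Cd36*, *Plin2* (0.992) and *Tuba1c* (0.991) for *Msr1*, and *Slc16a10* (0.941) and *Rbx1* (0.938) for *Marco*. For *Cd68* they were *Creg1* (0.937) and *Glmp* (0.935), and for *Scarb1* *Slc38a1* (0.976) and *Sh2b1* (0.949). For *Mrc1* they were *Cd93* (0.991) and *Sh3bp5* (0.988), for *Stab1* *B4galt6* (0.966) and *Tmem126b* (0.959), and for *Cd5l* *Qdpr* (0.970) and *Tradd* (0.961).

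The pair of adult and slice 3 weeks libraries under each study label gave the same direction for all 8 genes. Between the libraries of the smaller label the difference in log2(CPM + 1) was 4.23 for *Msr1*, 3.07 for *Cd36*, 0.98 for *Cd68* and -0.72 for *Stab1*, and between the replicate 2 libraries it was 3.75, 3.00, 0.96 and -0.87. For *Mrc1* the values were 0.84 and 1.79 and for *Scarb1* 0.90 and 0.62. *Cd5l* gave 3.51 and 0.31, and *Marco* 0.23 and 1.26. The in vitro, 1 day and 1 week libraries all carried the larger label, as did adult replicate 2. Against that adult library alone 8 members were called in vitro, 5 at 1 day and 4 at 1 week, and with the study label as a term 7, 6 and 5.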

How the data were processed

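Single-cell 3' libraries (10x Genomics kit v2) of sorted microglia were sequenced on a HiSeq, 2 per group. Cell Ranger was run on the reads by the authors (version 1.3.0 and mm10 in the submitters' processing notes) who deposited raw UMI counts per gene symbol and cell, with no normalisation. Genes with 0 UMIs in a library are left out of its table and were set to 0, and 13 symbols listed more than once were summed. Cells with over 5% mitochondrial UMIs, fewer than 400 genes or over 30000 UMIs were removed, following the study's stated filter, and 578 barcodes were lost. Doublets were not removed here.

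Counts were summed per library and tested with edgeR 4.0.16 in R 4.3.3 (quasi-likelihood, TMM, filterByExpr with a minimum count of 10, 1 model of 5 groups with 5 residual degrees of freedom), adjusted by Benjamini-Hochberg over 12157 genes. The SE is the log2 fold change divided by the square root of the F statistic. The fit was tested on simulated counts with known changes. With 2 libraries a group an exact permutation test cannot go below p = 0.333, so single values were not tested. Levels are TMM-normalised CPM. Marker sums, pooled ratios and bounds use CPM by library size. Exact Poisson-conditional or binomial intervals are at 95%, and a count of 0 was given a floor of 3 UMIs.

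The 8 genes, the gene lists and the tests were chosen with earlier results of these data known. Named genes were, for each list, up to 3 called genes of largest absolute log2 fold change, among genes averaging 3 or more in log2 CPM, in in vitro and in slice 3 weeks against adult, and for each of the 8 genes the 2 genes of highest correlation. A gene that this rule named is not reported here. Genes of small counts were also named, after their values were seen. Alternatives were DESeq2 1.42.0 (its Wald test and its size factors), library-size scaling, UMIs per cell, no low-count filter, all barcodes, thinned cells, removal of cells with markers of other types, fits of 2 groups, a replicate block, a study label term and leaving out each library. Promoters came from RefSeq and gene positions from GENCODE M21.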

Additional observations from a re-analysis of the deposited data

How the results depend on the processing

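When 1 library at a time was left out, the number of the 8 genes called was 7 to 8 for in vitro against adult, 5 to 6 for slice 1 day, 3 to 5 for slice 1 week and 5 to 8 for slice 3 weeks against adult, 6 to 7 for in vitro against slice 3 weeks, 4 to 7 for slice 3 weeks against 1 day, 2 to 3 for 1 week against 1 day and 1 to 5 for 3 weeks against 1 week. The replicate numbers did not pair the libraries (correlations of deviations -0.15 to 0.21, over 0.1 in 2 of 10 pairs). With the replicate block the counts, in that order, were 7, 6, 4, 8, 7, 6, 3 and 4, and *Marco* at 3 weeks against adult (4.65, adjusted p = 0.0411) and *Stab1* from 1 day to 3 weeks (-0.59, adjusted p = 0.0225) were called, as was *Marco* from 1 day to 1 week, while *Mrc1* from 1 day to 1 week (1.17, adjusted p = 0.0516) was not. With DESeq2's Wald test they were 7, 6, 4, 7, 6, 5, 4 and 4.

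The planned removal of cells with 3 or more neutrophil markers left 5 and 0 cells in slice 1 day replicate 2 and slice 1 week replicate 1, which were dropped. It gave 0 calls from 1 day to 1 week and 0 from 1 week to 3 weeks (edgeR; 2 and 4 members at an unadjusted p under 0.05), although *Cd36* (-2.95) and *Msr1* (-2.45) from 1 day to 1 week, and *Cd36* (-1.48) and *Cd68* (1.28) from 1 week to 3 weeks, differed by about as much as with all cells. The planned removal of cells with 2 or more border macrophage markers left 22 and 21 in vitro cells and gave 4 calls in vitro against adult and 2 from 1 week to 3 weeks. Thinned cells gave 1 call from 1 week to 3 weeks. Fitting only the 2 groups gave 5 calls from 1 day to 1 week. Both removals and both smaller fits use fewer cells or samples.

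Over the 8 genes and all alternatives, 1315 of 1447 values kept their direction and call, 72 lost and 41 gained a call, and 19 changed sign. On UMIs per cell the median of all genes was 2.04 in vitro, 1.49 at 1 day, 1.10 at 1 week and 1.05 at 3 weeks against adult. On that scale log2 values turned to 1.40 for *Scarb1* in vitro, 0.74 (1 day) and 0.75 (1 week) for *Cd68*, 1.27 (1 day) and 0.28 (3 weeks) for *Stab1*, and 0.60 for *Cd68* in vitro against 3 weeks. They also turned to 0.88 for *Ppard* and 1.27 for *Wasf2* in vitro, and to 0.067 for *Maf*, 0.27 for *Rxrb*, 0.42 for *Spi1*, 0.11 for *Syk* and 0.24 for *Wasf2* at 3 weeks. Each lay below the median of all genes on that scale. Under the border marker rule *Marco* turned to -1.70 in vitro against adult and -4.01 against 3 weeks, *Cd68* in vitro to -0.017, *Stab1* at 1 week to -0.10 and *Cd5l* from 1 day to 3 weeks to -0.85. Under the neutrophil marker rule *Cd5l* at 1 week turned to -5.61 and *Scarb1* from 1 day to 1 week to -0.13. *Stab1* at 1 day turned to 0.012 with the study label term and was -0.41 to 0.018 when 1 library was left out, above 0 without adult replicate 1. *Cd5l* at 1 week was -5.58 to 3.16 when 1 library was left out, lowest without slice 1 week replicate 1, which left 0 UMIs. *Cd5l* from 1 day to 3 weeks turned to -2.22 with the study label term, -0.054 with the replicate block and -2.59 without slice 3 weeks replicate 1, against 1.46 without replicate 2. The cause of these changes was not tested. Depth limits *Marco* and *Cd5l* at 1 week, where 0 and 4 UMIs were found in 209 cells.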
